A study of Homo sapiens with 3 samples.

Results

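DNA repair genes were examined as a set of 48 human genes in HCT116 cells in which *HOXA5* short RNA had been silenced with siRNA. The genes were chosen by name from the textbook repair pathways, and 45 of the 48 had a probe that passed the filters, among 12031 genes with such a probe. HCT116 cells are a long-used line from a human colon cancer, and the line is deficient in DNA mismatch repair. *HOXA5* short RNA is a short transcript of the *HOXA5* locus, and both siRNAs were directed at its junction between the first and the last exon. The groups were control siRNA, siRNA #7 and siRNA #8, each given to the cells for 48 h, and the labels name no other treatment. One-colour Agilent arrays measured 400 ng of RNA per condition, with 1 array for each of the 3 conditions, so no difference had a replicate check. Both silenced conditions were set against the same control array, and a gene that was high by error on that array would be lower with both siRNAs. RNA came from whole cultures, so fewer cells in one phase of the cell cycle and less RNA per cell cannot be told apart.

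Mismatch repair removes bases that were wrongly inserted during DNA replication. Homologous recombination mends double-strand breaks from the sister copy, the Fanconi genes unhook crosslinks between the strands, and end joining rejoins broken ends without a template. Base excision repair replaces single damaged bases, and nucleotide excision repair cuts out a short stretch around a bulky lesion. Many genes of the first 3 pathways are known to be transcribed mainly when cells copy their DNA, while those of nucleotide excision repair are expressed through the whole cycle.

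The siRNA strands are shown because the comparison turns on how alike they are. Each had 21 bases, and 17 of them, in capitals, were shared, with 4 bases at one end that differed.
siRNA #7: gagaAACUGAAAGACAACAUA
siRNA #8: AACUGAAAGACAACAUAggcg
Except for this shift along the exon junction, the siRNAs carried the same bases.

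Values are given as scaled intensity, which is the background-subtracted brightness of a probe after each array was brought to the 75th percentile of the control array. Probes differ in how brightly they bind, so a scaled intensity was compared between arrays and never between genes. Log2 ratios were taken between arrays, and the SD beside each is the spot-to-spot error of the ratio, estimated from probes printed 10 times on the arrays. This error leaves out all variation between cultures. The pooled spot-to-spot SD was 0.178 (log2) on the control array, 0.148 with siRNA #7 and 0.167 with siRNA #8. Between 19069 and 20473 probes per array were well above background, and no probe was saturated. All 6 epithelial marker genes had a passing probe, as did 0 of 4 leukocyte, 0 of 3 endothelial and 1 of 4 fibroblast markers. The *HOXA5* probe is annotated to the coding transcript. Its position was not looked up, so whether it also binds the short RNA is not known. Its scaled intensity was 84.9 on the control array, 66.1 for siRNA #7 and 72.2 for siRNA #8. The log2 ratios to control were -0.36 (SD 0.25) and -0.23 (SD 0.26).

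With siRNA #8 most repair genes lay below the control array, and with siRNA #7 they did not. The median log2 ratio of the 45 genes was -0.29 with siRNA #8, beside 0.0072 over all genes, and 0.0052 with siRNA #7, beside 0.016 over all genes. With siRNA #8, 35 of the 45 repair genes were below the control array (77.8%), beside 49.2% of all genes. With siRNA #7, 22 were below it (48.9%), beside 48.3% of all genes. At least 1.5-fold lower with siRNA #8 were 12 repair genes, or 26.7%, where 10.3% of all genes were that much lower. These 12 genes were *MSH6*, *EXO1*, *BRCA1*, *BARD1*, *RAD54L*, *FANCC*, *FANCD2*, *FANCG*, *FANCI*, *BLM*, *ATR* and *PARP2*. At least 1.5-fold lower with siRNA #7 were *MSH6* and *ATR* only, 2 of 45, where 6.92% of all genes were. The same 2 genes were at least 1.5-fold lower with both siRNAs, where 1.67% of all genes were. At least 1.5-fold higher was 1 repair gene with siRNA #8, *ERCC2*, beside 7.79% of all genes. None of the 45 was that much higher with siRNA #7 (0 genes), beside 7.6% of all genes. A 2-fold lower level was reached by *BARD1* and *FANCI* with siRNA #8, 2 of 45 beside 3.03% of all genes, and by *ATR* with siRNA #7, 1 of 45 beside 1.72%.

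**Figure D1:**
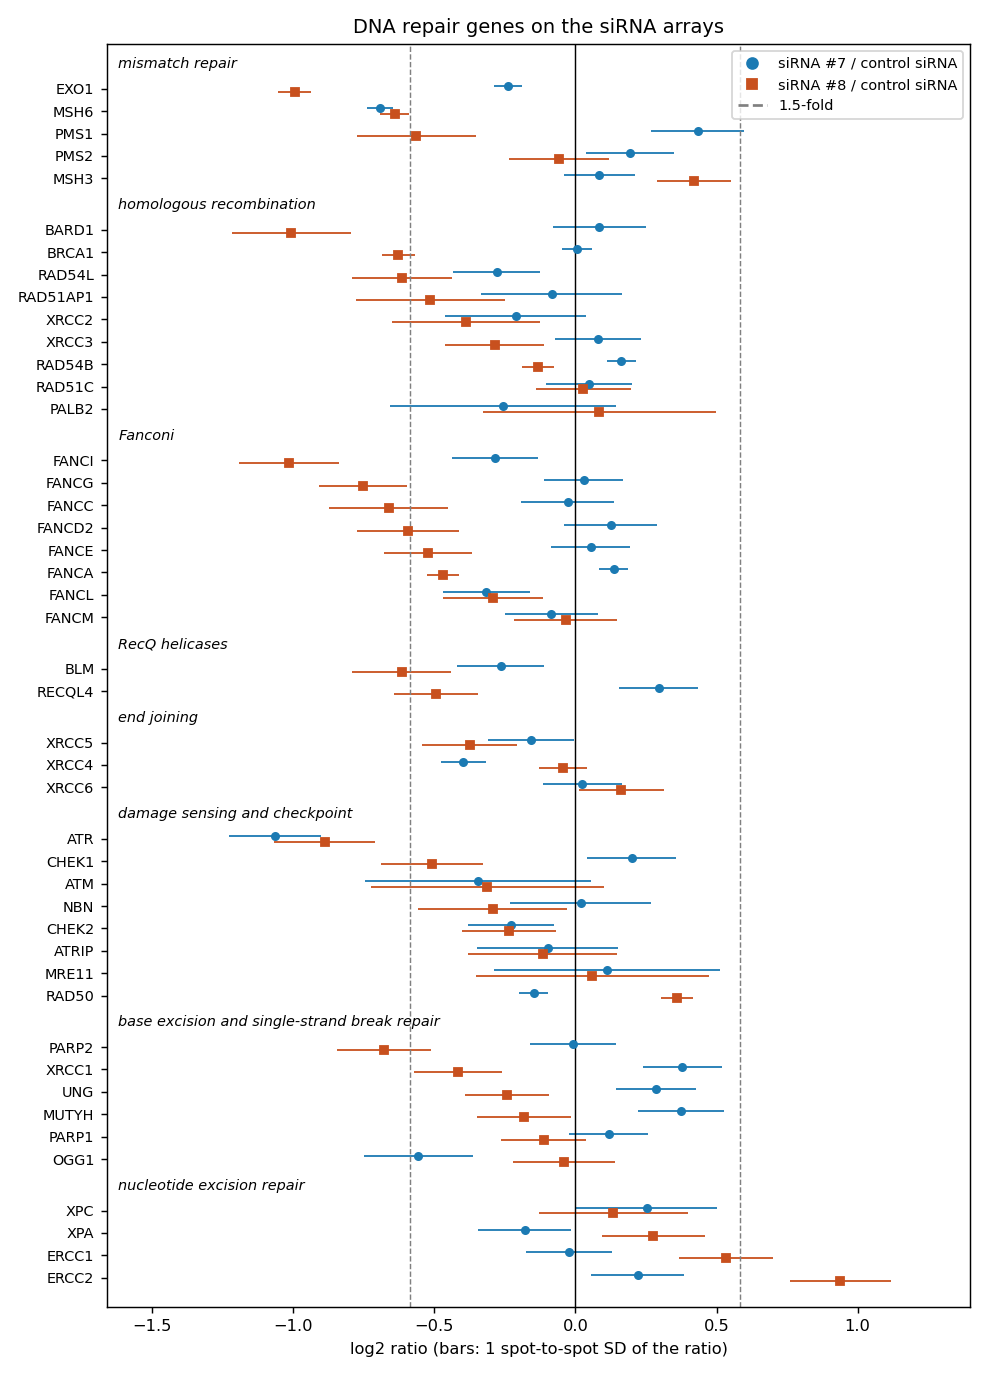
Log2 ratios of the 45 repair genes with a passing probe, by repair pathway, for siRNA #7 (circles) and siRNA #8 (squares) over the same control siRNA array. Bars are 1 SD between spots, and dashed lines mark 1.5-fold. All 8 Fanconi genes lie below 0 with siRNA #8, while the circles scatter around 0 in most pathways.

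The array of siRNA #8 was also set directly against that of siRNA #7, which leaves the control array out. The median log2 ratio of siRNA #8 over siRNA #7 was -0.25 for the repair genes and -0.013 for all genes, and 31 of the 45 were below 0 (68.9%), beside 51.2% of all genes. Of the repair genes 13 were at least 1.5-fold lower with siRNA #8 than with siRNA #7 (28.9%), where 11.6% of all genes were. Only *ERCC2* was at least 1.5-fold higher, 1 of 45 beside 8.87% of all genes. So the lower levels with siRNA #8 were also seen in a ratio that holds no control array. Both ratios share the 1 array of siRNA #8, and an error on that array would be in both.

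When limma set both silenced arrays as a single group against the control array, 0 of the 45 repair genes passed an adjusted p of 0.05, as did 0.011% of the 18121 probes tested. The lowest adjusted p of a repair gene was 0.99981 by limma with Benjamini-Hochberg adjustment. At an unadjusted p under 0.05, 1 of the 45 passed in limma, beside 3.71% of all probes. That gene was *ATR*, with a log2 difference of -0.98 (SE 0.33) and an unadjusted limma p of 0.0199. The spread in this fit is the difference between the siRNAs, so a gene that was lower with siRNA #8 alone had a large spread in it.

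**Figure D2:**
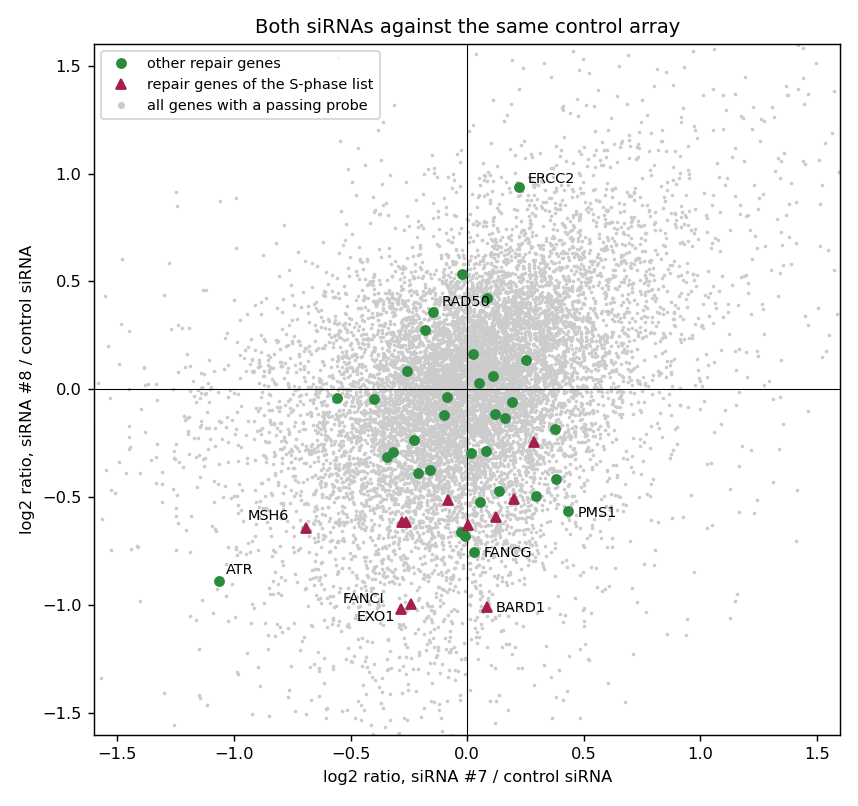
Log2 ratio with siRNA #7 (horizontal axis) and siRNA #8 (vertical axis), both over the same control array, for all genes (grey) and the repair genes, with triangles for the S-phase list. The axes end at 1.6, which leaves out 170 of 12031 genes, none of them a repair gene. Triangles all lie below 0 on the vertical axis, and *ATR* and *MSH6* lie at the lower left.

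Among the mismatch repair genes the median was at 0.085 (log2) for siRNA #7 and at -0.56 for siRNA #8. At least 1.5-fold lower with siRNA #8 were 2 of the 5, beside 10.3% of all genes. *MSH6* encodes the subunit that recognises single mismatched bases. Its scaled intensity was 1478 on the control array, 915 after siRNA #7 and 948 after siRNA #8. Over its 10 spots the control array ranged from 1281 to 1599, siRNA #7 from 833 to 1016 and siRNA #8 from 845 to 1057. All spots of both silenced arrays were thus below every spot of the control array that was used, and the silenced arrays overlapped each other. Spots of 1 array measure spot-to-spot error only and are not replicates of the condition. How many other probes printed 10 times also lacked overlap is not given, here or for the genes below. The log2 ratios of *MSH6* were -0.69 (SD 0.046) with siRNA #7 and -0.64 (SD 0.051) with siRNA #8. With the deviation of neighbouring spots removed, the value with siRNA #7 was -0.55, short of 1.5-fold, so *MSH6* was then not past it with both. *EXO1* encodes the exonuclease that removes the strand with the error. Its scaled intensity was 298 on the control array, 252 after siRNA #7 and 149 after siRNA #8. Its 10 spots ranged from 280 to 320, from 233 to 272 and from 108 to 176 in that order. No 2 arrays overlapped, and the log2 ratios of *EXO1* were -0.24 (SD 0.050) and -0.995 (SD 0.057).

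*PMS1* and *PMS2* encode partners of the complex that acts after a mismatch has been recognised. The scaled intensity of *PMS1* was 139 on the control array, 188 after siRNA #7 and 94.0 after siRNA #8. It was therefore above the control with one siRNA and below it with the other, with log2 ratios of 0.43 (SD 0.16) and -0.56 (SD 0.21). A second *PMS1* probe gave 0.11 and -0.28. *PMS2* had a scaled intensity of 309, 353 and 297, with log2 ratios of 0.19 (SD 0.16) and -0.06 (SD 0.18). Its other passing probes ran from -0.35 to 0.03 with siRNA #7 and from -0.28 to 0.10 with siRNA #8. *PMS2* has near-identical copies in the genome, so its probes may bind more than 1 transcript. *MSH3*, the subunit that recognises longer loops, had a dim probe. Its scaled intensity was 19.1, 20.3 and 25.6, with log2 ratios of 0.09 (SD 0.13) and 0.42 (SD 0.13), and its spots overlapped between all arrays.

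**Figure D3:**
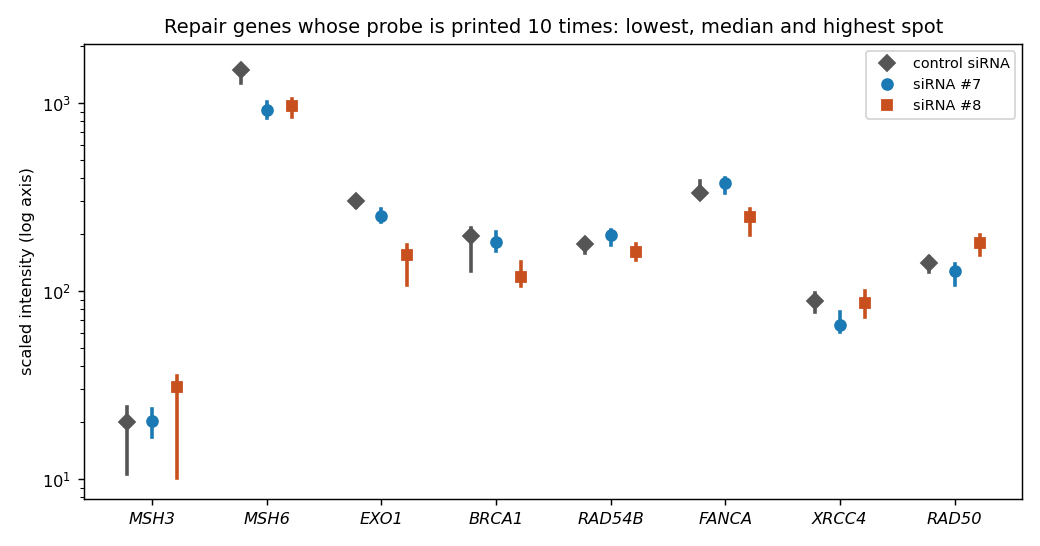
Scaled intensity on a log axis for the 8 repair genes whose probe is printed 10 times. Symbols are the median spot and bars run from the lowest to the highest spot on the array. The bars of *MSH6* and *EXO1* on both silenced arrays lie below those of the control array, and those of *RAD50* with siRNA #8 lie above it.

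Over 9 of 10 homologous recombination genes, the median was at 0.0052 (log2) for siRNA #7 and at -0.39 for siRNA #8. With siRNA #8, 3 of them were at least 1.5-fold lower, beside 10.3% of all genes. With siRNA #7 none of them was, beside 6.92% of all genes. *BARD1* and *BRCA1* encode the partners of a ubiquitin ligase that prepares breaks for recombination. The scaled intensity of *BARD1* was 123 on the control array, 130 after siRNA #7 and 61.2 after siRNA #8, with log2 ratios of 0.09 (SD 0.16) and -1.01 (SD 0.21). *BRCA1* had a scaled intensity of 185, 186 and 120, and log2 ratios of 0.01 (SD 0.053) and -0.63 (SD 0.057). Both genes were level with the control with siRNA #7 and lower with siRNA #8. The highest *BRCA1* spot with siRNA #8 was 143 and the lowest control spot 129, so the arrays overlapped for single spots. *RAD54L*, a motor protein that helps strands pair, had a scaled intensity of 512, 422 and 335, and log2 ratios of -0.28 (SD 0.15) and -0.61 (SD 0.18).

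The other recombination genes stayed within 1.5-fold of the control with both siRNAs. *RAD51AP1*, which stimulates strand pairing, was at 63.2, 59.7 and 44.3, with log2 ratios of -0.08 (SD 0.25) and -0.51 (SD 0.26). *XRCC2* and *XRCC3* encode relatives of the recombinase, and their log2 ratios were -0.21 and 0.08 with siRNA #7 and -0.39 and -0.29 with siRNA #8. *RAD51C*, another relative, was near the control, at 1006, 1041 and 1026. *RAD54B*, printed 10 times, was at 175, 196 and 160, and its spots overlapped between the control array and either silenced array. *PALB2*, which brings the *BRCA2* protein to breaks, was dim, at 32.2, 27.0 and 34.2. *BRCA2* itself was near background on every array, in spite of its 10 spots, and has no ratio here.

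The Fanconi genes were all below the control array with siRNA #8, 8 of 8 with a passing probe, beside 49.2% of all genes. At least 1.5-fold lower were 4 of the 8, beside 10.3% of all genes. The median log2 ratio of the Fanconi genes was -0.56 with siRNA #8 and 0.0013 with siRNA #7. With siRNA #7, 4 of the 8 were below the control, beside 48.3% of all genes. *FANCI* and *FANCD2* encode the pair that is clamped onto DNA at a crosslink. *FANCI* had a scaled intensity of 768 on the control array, 631 after siRNA #7 and 380 after siRNA #8, with log2 ratios of -0.28 (SD 0.15) and -1.02 (SD 0.18). *FANCD2* had 177, 193 and 117, with log2 ratios of 0.13 (SD 0.16) and -0.59 (SD 0.18). A second *FANCD2* probe gave -0.36 and -0.91, so the probes were both lower with siRNA #8 and opposite in sign with siRNA #7. *FANCD2* has near-identical copies, and its values are uncertain for that reason.

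The Fanconi core complex attaches ubiquitin to that pair. Of its subunits, *FANCG* was at 1419, 1449 and 843, with log2 ratios of 0.03 (SD 0.14) and -0.75 (SD 0.16). *FANCC* was at 165, 162 and 104, with log2 ratios of -0.03 (SD 0.16) and -0.66 (SD 0.21). Both were thus lower only on the array of siRNA #8. *FANCA* was at 338, 372 and 244, with log2 ratios of 0.14 (SD 0.051) and -0.47 (SD 0.056), and its 10 spots with siRNA #8 were all below those of the control. Another 2 *FANCA* probes gave -0.70 and -1.12 with siRNA #8. *FANCE* was at 1510, 1567 and 1052, with log2 ratios of 0.05 (SD 0.14) and -0.52 (SD 0.16). Its spot lies in the first column of the array, where the neighbouring spots were above their control by 0.70 (log2) for siRNA #7 and 0.35 for siRNA #8, and with that deviation removed *FANCE* was at -0.63 and -0.85. The ligase gene *FANCL* had log2 ratios of -0.32 (SD 0.15) and -0.29 (SD 0.18), and the motor gene *FANCM* -0.09 and -0.03. A second, dimmer *FANCL* probe gave -0.67 (SD 0.33) and -0.20 (SD 0.34).

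The remaining 2 Fanconi genes were not well above background on every array. *FANCB*, of the core complex, was well above background on the arrays of control siRNA (32.2) and siRNA #7 (20.7) but not on that of siRNA #8 (9.68). By these measured values the array of siRNA #8 was 3.32-fold lower than the control array and 2.14-fold lower than that of siRNA #7. *BRIP1*, a helicase that binds the *BRCA1* protein, was at 16.3, 26.3 and 10.2, and only the last was not well above background. By these values the array of siRNA #8 was 1.60-fold lower than the control array, a log2 ratio of -0.68 (SD 0.41), and 2.59-fold lower than that of siRNA #7. Both measured values on the array of siRNA #8 were above the dimmest signal well above background on it, 8.61 in scaled intensity. The folds are therefore ratios of measured values and not lower limits. Each of these probes was printed once, where dim spots have a spot-to-spot SD of the ratio of 0.41.

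The RecQ helicases unwind DNA structures that arise at stalled forks. *BLM* was at 524, 436 and 342, with log2 ratios of -0.26 (SD 0.15) and -0.62 (SD 0.18). *RECQL4* was at 4534, 5564 and 3217, with log2 ratios of 0.30 (SD 0.14) and -0.50 (SD 0.15). The first was thus below the control with both siRNAs and the second only with siRNA #8.

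The medians over 3 end joining genes were -0.16 for siRNA #7 and -0.042 for siRNA #8 (log2). With each siRNA 2 of the 3 were below the control array, beside 48.3% (siRNA #7) and 49.2% (siRNA #8) of all genes. *XRCC5* and *XRCC6* encode the ring that binds broken ends. *XRCC5* was at 918, 823 and 708, with log2 ratios of -0.16 (SD 0.15) and -0.38 (SD 0.17). *XRCC6* was at 50466, 51340 and 56492, with log2 ratios of 0.02 and 0.16, and near-identical copies make it uncertain. *XRCC4*, the scaffold of the ligase, was at 87.9, 66.8 and 85.4, with log2 ratios of -0.40 (SD 0.079) and -0.04 (SD 0.085). Its 10 spots with siRNA #7 were all below those of the control array. None of the 3 reached 1.5-fold with either siRNA.

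Among the 8 genes of damage sensing and checkpoint signalling the medians were -0.12 with siRNA #7 and -0.26 with siRNA #8. *ATR* encodes the kinase that responds to stalled replication forks. It had a scaled intensity of 301 on the control array, 144 after siRNA #7 and 162 after siRNA #8, with log2 ratios of -1.06 (SD 0.16) and -0.89 (SD 0.18). A second, dimmer *ATR* probe had 51.9, 23.0 and 41.6, with log2 ratios of -1.18 (SD 0.33) and -0.32 (SD 0.34). Both probes were lower with siRNA #7, and the second was within its spot-to-spot error of the control with siRNA #8. The spots around the brighter probe were themselves lower, at -0.23 (log2) for siRNA #7 and -0.58 for siRNA #8. With the deviation of the neighbouring spots removed, *ATR* had log2 ratios of -0.82 and -0.29, so its 1.5-fold lower level with siRNA #8 was lost.

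The checkpoint kinase gene *CHEK1*, which acts below the *ATR* kinase, was at 212, 243 and 149, with log2 ratios of 0.20 (SD 0.16) and -0.51 (SD 0.18). *CHEK2*, which acts below the *ATM* kinase, was at 728, 621 and 618, with log2 ratios of -0.23 and -0.24. Its other passing probes ran from -0.41 to -0.11 with siRNA #7 and from -0.66 to -0.46 with siRNA #8. Near-identical copies make *CHEK2* uncertain. *ATM* was dim, at 23.4, 18.4 and 18.8, and its log2 ratios of -0.34 and -0.31 were smaller than their SDs (0.40 and 0.41). *ATRIP*, the partner of the *ATR* kinase, had log2 ratios of -0.10 and -0.12, and a second, dimmer probe gave -0.03 (SD 0.33) and -0.60 (SD 0.34). The break sensor consists of the products of *MRE11*, *RAD50* and *NBN*. *RAD50* was at 139, 126 and 178, with log2 ratios of -0.15 (SD 0.052) and 0.36 (SD 0.057), and its 10 spots with siRNA #8 were all above those of the control. *MRE11* had log2 ratios of 0.11 and 0.06, and *NBN* of 0.02 and -0.29. The sensor subunits therefore did not move together.

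In base excision and single-strand break repair all 6 genes were below the control array with siRNA #8, beside 49.2% of all genes. With siRNA #7, 4 of the 6 were above it, beside 6222 of 12031 genes. With neighbouring spots removed *PARP1* was at 0.045 with siRNA #8. The medians were 0.20 with siRNA #7 and -0.21 with siRNA #8. *PARP2*, which marks breaks with poly(ADP-ribose), was at 909, 904 and 567, with log2 ratios of -0.01 (SD 0.15) and -0.68 (SD 0.17). Spots around it had a log2 ratio of -0.49 with siRNA #8, and with that deviation removed its log2 ratio was -0.17. *PARP1*, the major enzyme of this kind, was at 1460, 1585 and 1351, with log2 ratios of 0.12 and -0.11. *XRCC1*, the scaffold of single-strand break repair, was at 1204, 1566 and 901, with log2 ratios of 0.38 (SD 0.14) and -0.42 (SD 0.16). The glycosylase genes remove damaged bases. *UNG* was at 4909, 5984 and 4151, with log2 ratios of 0.29 and -0.24, and *MUTYH* at 775, 1004 and 682, with log2 ratios of 0.37 and -0.18. *OGG1* was at 136, 92.4 and 132, with log2 ratios of -0.56 (SD 0.19) and -0.04 (SD 0.18), and a second probe gave -0.15 and -0.57.

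The 4 nucleotide excision repair genes were above the control array with siRNA #8, beside 6111 of 12031 genes. Their median log2 ratio was 0.40 (0.099 with siRNA #7). *XPC* was below the control with siRNA #8 under normexp (-0.057) and spike-in scaling (-0.075), and 8 of 15 further genes of the pathway were below it. *ERCC2* encodes a helicase that opens the strands at the lesion. It was at 114 on the control array, 133 after siRNA #7 and 218 after siRNA #8, with log2 ratios of 0.22 (SD 0.16) and 0.94 (SD 0.18). Its second probe gave 0.03 and 0.43, and with normexp background correction the brighter probe gave 0.15 with siRNA #8. *ERCC1*, of the nuclease that cuts beside the lesion, was at 614, 604 and 888, with log2 ratios of -0.02 (SD 0.15) and 0.53 (SD 0.17). A second *ERCC1* probe gave -0.08 and -0.50, so the direction of *ERCC1* with siRNA #8 depended on the probe, and the mean of both was 0.017. The lesion binding genes *XPA* and *XPC* had log2 ratios of -0.18 and 0.25 with siRNA #7 and of 0.28 (SD 0.18) and 0.13 (SD 0.26) with siRNA #8.

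Other probes of the same genes were used as a check. Passing probes beyond the brightest numbered 22, from 13 genes, and the other 32 genes had 1 passing probe. Of the 22, 18 had the sign of the brightest probe with siRNA #7 and 20 had it with siRNA #8. With siRNA #8, 20 of the 22 were below the control array, with a median log2 ratio of -0.47, and with siRNA #7 15 were, with a median of -0.13. By brightest probe, 49.2% of all genes were below it with siRNA #8 and 48.3% with siRNA #7. The share over other probes of all genes is not given. *PMS2* and *CHEK2*, with 6 passing probes each, gave many of the 22, and both have near-identical copies. Probes of a gene share its RNA and its culture, and they are not replicates of the condition.

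**Figure D4:**
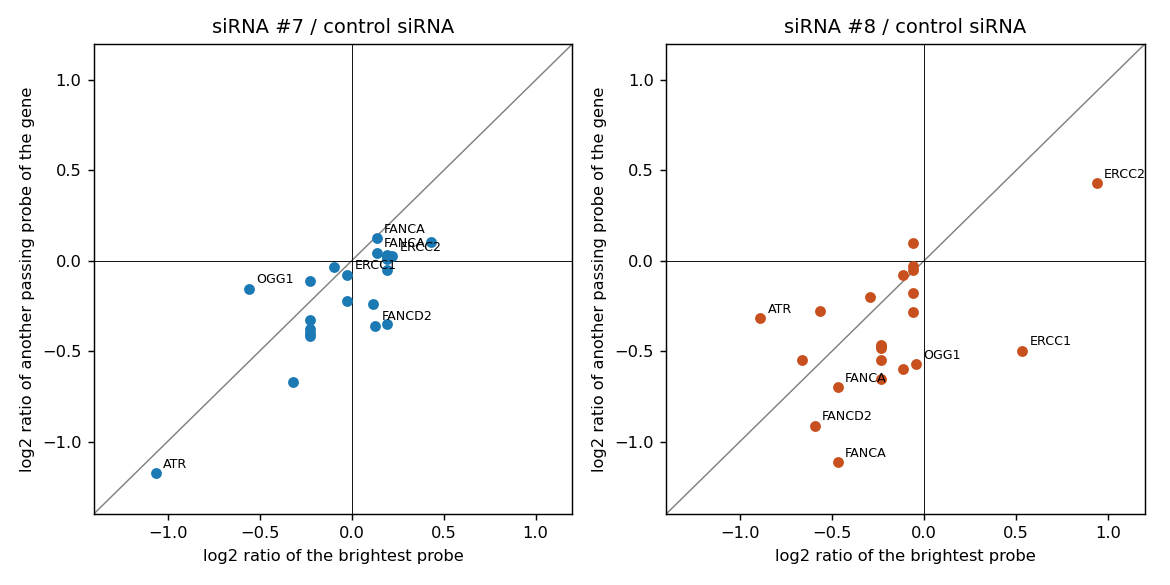
Log2 ratio of the brightest probe of a gene (horizontal axis) against that of each of its other passing probes (vertical axis), for siRNA #7 (left) and siRNA #8 (right) over control siRNA, with the line of equality. Each point is 1 of 22 probes. *ERCC1* lies at opposite signs with siRNA #8, and both *FANCA* probes lie below the line there.

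A further division was made by the cell cycle. A list of 13 of the repair genes that are known to be transcribed mainly around S phase was set beside the rest, and 11 of the 13 had a passing probe. Like the other lists, it was chosen with earlier results of these data known, so the contrast is a description and no test. With siRNA #8 all 11 were below the control array, beside 49.2% of all genes, with a median log2 ratio of -0.62. At least 1.5-fold lower were 8 of the 11 (72.7%), beside 10.3% of all genes. Of the 34 repair genes outside the list, 24 were below the control array, with a median of -0.16, and 4 were at least 1.5-fold lower, namely *FANCC*, *FANCG*, *ATR* and *PARP2*. With siRNA #7 the medians were -0.083 and 0.021, and 1 gene in each was at least 1.5-fold lower, beside 6.92% of all genes. A list of 16 DNA replication genes, none of them a repair gene of the set, had medians of -0.13 with siRNA #7 and -0.50 with siRNA #8. Of these 16, 15 were below the control array with siRNA #8, and 7 were at least 1.5-fold lower, beside 10.3% of all genes. The level of replication genes thus moved with that of the repair genes, and its part in their values was not tested.

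The pathways reach beyond the 48 genes, and 94 more genes were listed by the same textbook pathways, of which 87 had a passing probe. Their medians were 0.0027 with siRNA #7 and -0.21 with siRNA #8. At least 1.5-fold lower with siRNA #8 were 18 (20.7%), beside 10.3% of all genes. With siRNA #7 4 of the 87 were that much lower, beside 6.92% of all genes. Further mismatch repair genes, mostly clamp loader, polymerase and strand-binding subunits shared with replication, had the lowest median with siRNA #8, -0.53 over 13 genes, 6 of them at least 1.5-fold lower. Further recombination genes had a median of -0.16 over 18 genes and further Fanconi genes of -0.19 over 7. The median was -0.25 for 7 end joining genes, -0.32 for 13 damage sensing genes, -0.048 for 14 base excision genes and -0.083 for 15 nucleotide excision genes. At least 1.5-fold lower with both siRNAs were 3 of the 87, beside 1.67% of all genes, and 1 was at least 1.5-fold higher with both, beside 3.03%. The 4 genes are a share of the 87 close to that of all genes and are given for their values. *POLQ*, the polymerase of the end joining that relies on short matches, was at 245, 143 and 58.6, with log2 ratios of -0.78 (SD 0.16) and -2.06 (SD 0.21). *RECQL*, a RecQ helicase, had -0.59 and -0.70, and *GEN1*, a nuclease for crossed strands, had -0.72 (SD 0.40) and -0.74 (SD 0.41) at a dim signal. *WEE1*, a kinase that holds cells before mitosis, was higher, with log2 ratios of 0.83 (SD 0.23) and 0.60 (SD 0.24).

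The promoters of the repair genes were searched for words of the type that E2F factors bind, since E2F factors drive many S-phase genes. The words were TTTCCCGC, TTTCGCGC, TTTGCCGC and TTTGGCGC on either strand, in the window from 250 bases before to 50 after each start in RefSeq on GRCh38.p14. Of the 48 genes 43 matched, with 61 promoters, and 12 of these (19.7%) held a word, beside 3.31% of all 35116 promoters and 5.02% of those of genes with a passing probe. The word was in 4 of 21 promoters of genes on the S-phase list (19.05%) and in 8 of 40 promoters of the other repair genes (20%). Counted by gene, a word was found in 4 of 12 genes on the list (33.3%) and in 7 of 31 others (22.6%). The share was 25.6% over all matched repair genes and 6.82% over the 9513 matched genes with a passing probe. All matches in the mismatch repair and Fanconi genes follow, with the word in capitals. With siRNA #8 the log2 ratios of these genes ran from -0.995 for *EXO1* to 0.42 for *MSH3*, with *PMS2* at -0.06. The *MSH3* matches overlap.
EXO1, chr1:241848200-241848223, plus strand: ggtcagccTTTCGCGCgctgtgta
MSH6, chr2:47783140-47783163, plus strand: cccccagaTTTCCCGCcagcagga
FANCD2, chr3:10026427-10026450, plus strand: cgggcctgGCGGGAAAgtcgaaaa
FANCC, chr9:95317740-95317763, minus strand: gtcggaatTTTCCCGCgacgccgc
FANCC, chr9:95317866-95317889, minus strand: gggcttccGCGCGAAAccgggaac
FANCA, chr16:89816804-89816827, minus strand: acaccgcgGCGGCAAAgccaaacg
PMS2, chr7:6009134-6009157, minus strand: gaagtattTTTGCCGCcccgcccg
MSH3, chr5:80654537-80654560, plus strand: cggtcaagTTTGGCGCgaaattgt
MSH3, chr5:80654541-80654564, plus strand: caagtttgGCGCGAAAttgtggcc
A match says only that these letters stand in the window, and the arrays hold no measure of factor binding.

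The group medians were recomputed under each other way of processing the arrays. The median of all repair genes with siRNA #8 lay between -0.50 and -0.29 under 9 alternatives, and that of the Fanconi genes between -0.77 and -0.49. The ends nearest to -1 came from scaling on spike-in probes, which lowered all genes together, to a median of -0.31 with siRNA #7 and -0.20 with siRNA #8. Measured from the median of all genes, the repair genes were then at -0.011 and -0.30.

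**Figure D5:**
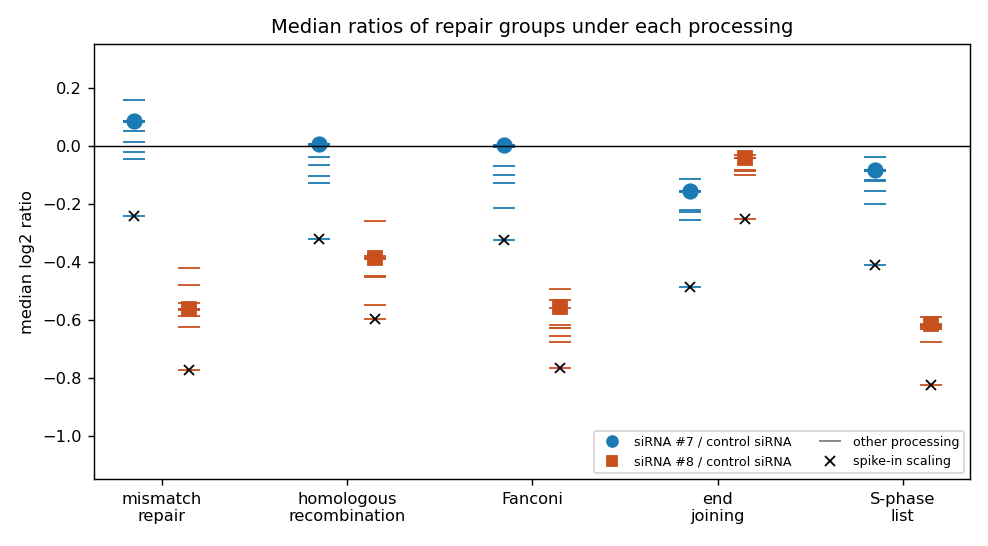
Median log2 ratio of 4 repair pathways and the S-phase list with siRNA #7 (circles) and siRNA #8 (squares) over control siRNA, with dashes for each alternative processing and crosses for spike-in scaling. With siRNA #8 the medians of mismatch repair, homologous recombination, Fanconi and S-phase genes stay below those with siRNA #7 under every processing shown, and those of end joining do not.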

How the data were processed

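The authors deposited, for each array, the background-subtracted intensity of every spot from Agilent Feature Extraction 11.5.1.1, not scaled from array to array. A log2 table deposited by the authors, centred for each probe, was an alternative. All 3 arrays were on 1 slide, so slide does not separate the conditions. Members and lists were chosen with earlier results of these data known.

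From the intensities, spots flagged as outliers were dropped, spots of 1 probe were averaged on the log2 scale, and each array was scaled to its 75th percentile over gene probes (factors of 1.26 and 1.23 for siRNA #7 and siRNA #8). A probe passed if it was well above background on all 3 arrays and at or above the 20th percentile on at least 2. The brightest passing probe stood for a gene. Symbols were matched by accession to RefSeq, so no gene coordinates are given on the build of the array design. Python 3.11.15, pandas 2.3.3 and limma 3.58.1 were used. The steps were tested on simulated data. Alternatives were other scalings, background corrections, filters, probe rules, removal of the deviation of spots within 3 rows and columns, and a 2-fold threshold. The siRNA files are numbered differently from the labels, and the labels were followed. All 48 genes are named, together with genes of the wider lists that were 1.5-fold changed in the same direction with both siRNAs.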

Additional observations from a re-analysis of the deposited data

Results flagged for a closer look

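In 6 repair genes the siRNAs moved the signal in opposite directions from the control array, each by more than 2 spot-to-spot SDs of its ratio. No share of all genes that meet this rule is given, so the count cannot be read as a trait of the repair genes. Opposite signs of any size were counted over all genes as well. Above the control with siRNA #7 and below it with siRNA #8 were 17 of 45 repair genes and 2270 of 12031 genes, a larger share of the repair genes. The other way round were 4 repair genes and 2159 of all genes. With 1 array per siRNA the difference between the siRNAs was not tested. The log2 ratio of siRNA #8 over siRNA #7 was -0.998 for *PMS1*, -0.80 for *XRCC1*, -0.79 for *RECQL4*, -0.60 for *FANCA* and -0.30 for *RAD54B*, all of them above the control with siRNA #7 and below it with siRNA #8. *RAD50* was the other way round, at 0.51. *FANCA*, *RAD54B* and *RAD50* were printed 10 times, and *PMS1*, *XRCC1* and *RECQL4* once. With 1 array per group, no array could be examined as an outlier of its group.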

How the results depend on the processing

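With 1 array per condition, the number of arrays limits every value, and dim genes such as *BRCA2* and *ATM* could not be resolved. Under spike-in scaling the medians of the repair genes were -0.32 with siRNA #7 and -0.50 with siRNA #8. At least 1.5-fold lower were then 9 of 45 with siRNA #7, where 22.6% of all genes were. With siRNA #8, 20 of 45 (44.4%) were that much lower, where 18.8% of all genes were. With both siRNAs 5 genes were, for which no share of all genes is given. The medians with siRNA #7 and siRNA #8 were then -0.24 and -0.77 for mismatch repair, -0.32 and -0.60 for homologous recombination, -0.33 and -0.77 for Fanconi and -0.49 and -0.25 for end joining. With the deviation of neighbouring spots removed, 1 gene (*FANCE*, in place of *MSH6* and *ATR*) was lower with both and the Fanconi median with siRNA #7 was -0.21. At 2-fold, 1, 2 and 0 genes were lower with siRNA #7, siRNA #8 and both. Beyond these shifts by construction, the cause was not tested. The 15 values past 1.5-fold kept their sign under all 9 alternatives of processing, and 13 stayed past it with quantile normalization, 11 with normexp, 10 with neighbouring spots removed and 15 with each of the others. Lost were *RAD54L* and *FANCD2* with quantile normalization, *BRCA1*, *FANCC*, *FANCD2* and *ERCC2* with normexp, and *BLM*, *FANCD2*, *PARP2*, *ATR* (siRNA #8) and *MSH6* (siRNA #7) with neighbouring spots removed. No repair gene passed in limma after quantile normalization either (0 genes). No paired analysis was possible because there is a single array for each condition.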
